A study of Mus musculus with 16 samples.

Results

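Messenger RNA of 10 genes that encode neutrophil alarmins and chemokines, S100a8, S100a9, Cxcl1, Cxcl2, Cxcl9, Cxcl10, Cxcl13, Ccl2, Ccl6 and Ccl9, was examined in mouse liver. The 10 genes are all of the rows of the deposited table that carry these names, out of 57010 genes in all. They were chosen with their levels in all 16 libraries known, so those levels are a description, and no test of a listed gene is given as evidence. The livers came from male wild-type C57BL/6J mice, with 4 mice in each of 4 groups. The study's methods give an age of 8 to 12 weeks, and a figure legend gives 8 weeks at the start of the diet. Control mice were mice 27 to 30. Cd mice (1, 2, 5 and 6) received CdCl2 at 1.25 mg/kg into the peritoneum daily for 7 days. Se mice (39, 40, 41 and 44) ate a diet with selenomethionine (SeMet) at 2 ppm for 3 months, and Cd+Se mice (13 to 16) had the same diet and, over the last 7 days, the same injections. The labels do not say which injection, if any, the mice without Cd were given. Levels are in TPM (transcript abundance in parts of a fixed library total), which are corrected for transcript length and scaled to 1 total, and the sequencing depth behind them is unknown.

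S100A8 and S100A9 are small calcium-binding proteins that pair as calprotectin, fill the cytoplasm of neutrophils, and act as alarmins on Toll-like receptor 4 once released. Chemokines are small secreted proteins that draw leukocytes along a gradient through receptors on the cell surface. CXCL1 and CXCL2 attract neutrophils through CXCR2, CCL2 attracts monocytes through CCR2, CXCL9 and CXCL10 attract activated T cells through CXCR3, and CXCL13 attracts B cells through CXCR5. CCL6 and CCL9 are CC chemokines of mouse myeloid cells that act through CCR1. In liver, hepatocytes, Kupffer cells (the resident macrophages), endothelial cells and stellate cells can all make chemokines. Because whole liver was sequenced, a change in the number of cells that make an RNA and a change in RNA per cell cannot be told apart.

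By GENCODE M21 (GRCm38), all 10 genes are protein-coding, and 8 of them lie in pairs of neighbours. S100a8 (chr3:90668978-90670035, plus strand) and S100a9 (chr3:90692632-90695721, minus strand) are separated by 22.6 kb. On chromosome 5, Cxcl1 (chr5:90891241-90893115) and Cxcl2 (chr5:90903871-90905938), both on the plus strand, are 10.8 kb apart. Cxcl9 (chr5:92321347-92328079) and Cxcl10 (chr5:92346638-92348889), both on the minus strand, are 18.6 kb apart, and Cxcl13 (chr5:95956951-95961068, plus strand) lies further along. Ccl9 (chr11:83572919-83578636) and Ccl6 (chr11:83587882-83593087), both on the minus strand, are 9.2 kb apart, while Ccl2 (chr11:82035571-82037453, plus strand) is on the same chromosome at a distance.

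Start-site windows are shown for the chemokine genes whose windows hold the letters of the kB motif, the sequence bound by NF-kB factors. RefSeq windows of 300 bases (GRCm38.p6, 250 bases before the transcript start and 50 from it) were found for 9 of the 10 genes; Ccl2 is named only. The kB motif was in 4 of the 9 windows, those of Cxcl1 (chr5:90890995-90891294, plus strand), Cxcl2 (chr5:90903649-90903948, plus strand), Cxcl10 (chr5:92348840-92349139, minus strand) and Ccl9 (chr11:83578587-83578886, minus strand). It was in 4.51% of all 32851 windows. The window of Cxcl9, a gene that was higher in the injected mice, did not hold it. The window of Cxcl13 (chr5:95956689-95956988, plus strand) is shown for comparison, since the gene was listed at 0 in all 8 injected mice. Each sequence is given on its gene's strand, and capitals mark the kB letters, which were looked for on both strands; the Cxcl13 window has none.
Cxcl1: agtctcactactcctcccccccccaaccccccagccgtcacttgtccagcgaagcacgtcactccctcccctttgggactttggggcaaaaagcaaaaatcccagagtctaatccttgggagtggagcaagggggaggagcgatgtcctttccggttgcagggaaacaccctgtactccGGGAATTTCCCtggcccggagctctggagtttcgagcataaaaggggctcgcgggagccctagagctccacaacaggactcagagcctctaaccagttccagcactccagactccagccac
Cxcl2: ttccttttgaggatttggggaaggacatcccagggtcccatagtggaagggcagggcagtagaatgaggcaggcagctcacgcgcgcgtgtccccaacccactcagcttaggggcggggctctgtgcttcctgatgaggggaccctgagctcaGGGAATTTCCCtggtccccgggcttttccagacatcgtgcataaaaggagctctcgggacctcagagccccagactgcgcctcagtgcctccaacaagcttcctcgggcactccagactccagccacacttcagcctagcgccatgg
Cxcl10: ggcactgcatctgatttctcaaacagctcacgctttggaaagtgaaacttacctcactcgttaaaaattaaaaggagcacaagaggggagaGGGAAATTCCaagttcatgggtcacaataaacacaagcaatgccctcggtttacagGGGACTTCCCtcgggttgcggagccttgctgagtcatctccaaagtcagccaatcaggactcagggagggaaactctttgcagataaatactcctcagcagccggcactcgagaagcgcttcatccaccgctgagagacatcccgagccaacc
Ccl9: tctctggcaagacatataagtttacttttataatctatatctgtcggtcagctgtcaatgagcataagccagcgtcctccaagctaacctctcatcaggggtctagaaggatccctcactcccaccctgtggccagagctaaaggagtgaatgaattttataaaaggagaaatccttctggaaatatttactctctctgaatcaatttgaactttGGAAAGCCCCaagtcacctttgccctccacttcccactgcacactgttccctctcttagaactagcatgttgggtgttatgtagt
Cxcl13: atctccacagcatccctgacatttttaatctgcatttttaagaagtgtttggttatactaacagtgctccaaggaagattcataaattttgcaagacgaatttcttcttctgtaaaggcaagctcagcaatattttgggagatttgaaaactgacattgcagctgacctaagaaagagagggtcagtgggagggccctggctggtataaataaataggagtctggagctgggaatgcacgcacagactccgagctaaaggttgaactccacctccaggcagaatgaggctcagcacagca
In Cxcl1 the kB letters matched both strands and overlapped, with the first base at position -71, taking the first transcribed base as 0. In Cxcl2 the same run of capitals began at -97, and in Cxcl10 there were separate matches from -159 and -103. Ccl9, whose level differed little between groups, had a match from -35. The AP-1 letters TGANTCA were in the windows of Cxcl9, Cxcl10 and Ccl9 (7.81% of all windows), and the interferon regulatory factor core AANNGAAA was in that of Cxcl10 (23.9%). The C/EBP letters TTGCNNAA were in those of S100a9 and Cxcl13 (10.8%), and TATAAA was in 5 of the 9, among them S100a8 and Cxcl13 (13.6%). TTCNNNGAA, the letters of the interferon-gamma activated site, were in none of the 9 (8.3%). A match is a description of letters and not of binding.

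The liver and treatment labels were checked first. The hepatocyte gene Alb was at 22135 TPM or more in every mouse. Mt1, a metallothionein gene that Cd induces, was between 50.9 and 431 TPM in the 8 mice without Cd and between 3178 and 6070 TPM in the 8 mice injected with Cd. All 10 listed genes averaged 1 TPM or more across the libraries, the limit for the fit across genes. Cxcl2 and Ccl2 reached it only through the injected mice and Cxcl13 only through the mice without Cd, so these 3 could hardly have passed it without differing.

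S100a8 was higher in every mouse injected with Cd than in every mouse that was not. Its levels were 6.2, 3.28, 3 and 2.63 TPM in control mice 27 to 30 and 12.6, 15.6, 13.2 and 9.19 TPM in Cd mice 1, 2, 5 and 6. In Se mice 39, 40, 41 and 44 they were 1.49, 2.59, 2.02 and 1.83 TPM, and in Cd+Se mice 13 to 16 they were 22.7, 13.2, 13.7 and 18.7 TPM. The group means were 3.78 ± 1.64 TPM (SD, n = 4) in control, 12.65 ± 2.66 in Cd, 1.98 ± 0.46 in Se and 17.1 ± 4.49 in Cd+Se. The Cd mean was 3.35 times the control mean, and on the log2(TPM + 1) scale the difference was 1.55 (standard error 0.22). Between Cd+Se and Se the difference was 2.58 (standard error 0.22), from a mean 8.61 times as high.

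S100a9, which encodes the partner of S100A8, showed the same order of groups. Control mice 27 to 30 had 9.32, 2.08, 6.94 and 12.95 TPM, and Cd mice had 22.5, 22.3, 19.6 and 20.6 TPM. Se mice had 3.29, 5.3, 7.03 and 5.33 TPM, and Cd+Se mice had 47.5, 28.5, 27.6 and 30.1 TPM. The 4 Cd mice lay within a narrow band, and all 4 Cd+Se mice lay above them. The log2(TPM + 1) difference was 1.53 (standard error 0.34) between Cd and control, 2.46 (standard error 0.34) between Cd+Se and Se, and 0.60 (standard error 0.34) between Cd+Se and Cd. The ratio of S100a9 to S100a8 RNA ran from 0.634 to 4.92 over the control mice and from 1.42 to 2.24 over the Cd mice. Both RNAs were lower in control mice and the depth is unknown. The part of measurement noise in the wider control range was not tested.

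**Figure D1:**
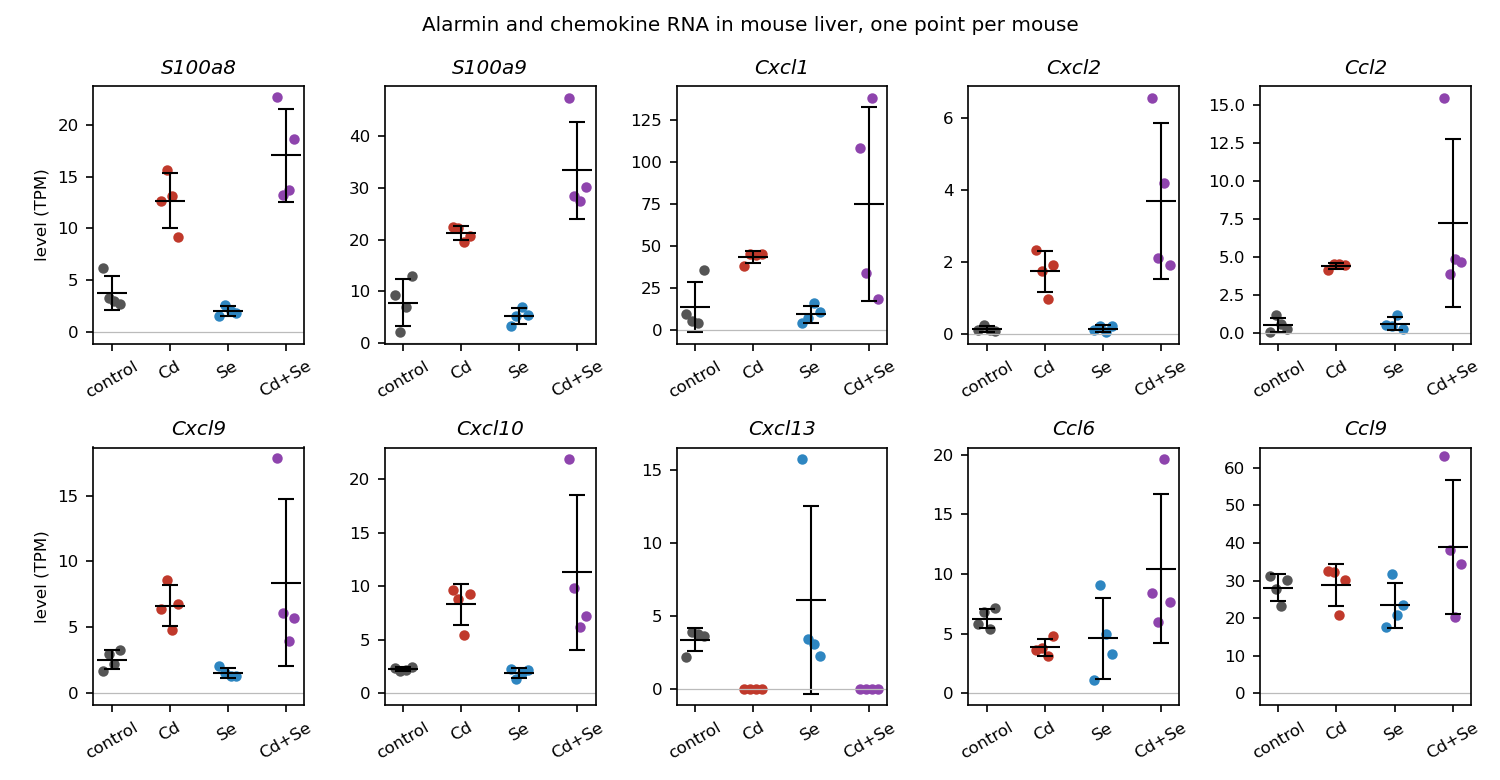
Level of each gene in TPM (linear axes that include 0) in each mouse, with the mean and SD of the 4 mice of a group; no mean is drawn where all 4 mice are at 0. S100a8, S100a9, Cxcl2, Ccl2, Cxcl9 and Cxcl10 do not overlap between injected and other mice, Cxcl13 is at 0 in all 8 injected mice, and 1 Cd+Se mouse, mouse 13, lies above the rest of its group in 7 panels.

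Cxcl1, a ligand of CXCR2, had the highest level of the 10 genes in an injected mouse and the widest spread. Control mice 27 to 30 had 9.94, 5.41, 4.15 and 36.1 TPM, and the Cd mice had 38.1, 45.1, 44.9 and 45.4 TPM. Levels were 4.37, 7.23, 16.03 and 10.9 TPM in Se mice and 108, 34.3, 138 and 18.9 TPM in Cd+Se mice 13 to 16. Cd mice lay above all control mice, but control mouse 30 was within the range of the Cd+Se mice, which spanned from below every Cd mouse to far above. The difference between Cd and control was 2.04 on the log2(TPM + 1) scale (standard error 0.61), and 2.64 (standard error 0.54) without control mouse 30.

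Cxcl2, whose product also acts on CXCR2, was near 0 without Cd and low but present with it. Control mice had 0.13, 0.26, 0.12 and 0.1 TPM, and Se mice had 0.12, 0.24, 0.06 and 0.23 TPM. Cd mice had 2.34, 1.75, 0.98 and 1.91 TPM, and Cd+Se mice had 6.55, 2.12, 4.2 and 1.91 TPM. Every injected mouse was therefore above every other mouse, and the mean in Cd was 11.4 times that in control. The log2(TPM + 1) difference of 1.23 (standard error 0.25) understates this, and with a pseudocount of 0.1 in place of 1 it was 2.85. Cxcl1 exceeded Cxcl2 in every mouse, by between 9.88 and 361 times in TPM, which are per transcript length.

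Ccl2, the ligand of CCR2, behaved much like Cxcl2. Its levels were 0.07, 1.14, 0.58 and 0.21 TPM in control, and Se mice had 0.51, 0.45, 1.17 and 0.21 TPM. Cd mice had 4.14, 4.54, 4.53 and 4.44 TPM, and Cd+Se mice had 15.5, 3.84, 4.85 and 4.67 TPM. The Cd mice agreed closely, and mouse 13 stood alone among the Cd+Se mice. The log2(TPM + 1) difference between Cd and control was 1.90 (standard error 0.32), and 3.30 with a pseudocount of 0.1; the mean in Cd was 8.83 times that in control.

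Cxcl10, a ligand of CXCR3 and a gene that interferons and NF-kB induce, was steady at 2.31, 2.12, 2.13 and 2.48 TPM in control mice and 2.29, 1.28, 1.91 and 2.18 TPM in Se mice. It was 9.7, 8.8, 5.46 and 9.3 TPM in Cd mice and 21.96, 9.88, 6.22 and 7.23 TPM in Cd+Se mice. All injected mice were higher than all others, and the difference between Cd and control was 1.49 on the log2(TPM + 1) scale (standard error 0.27). Cxcl9, the interferon-gamma induced ligand of the same receptor, was between 1.67 and 3.26 TPM in control, 1.27 and 2.09 in Se, 4.81 and 8.61 in Cd and 3.98 and 17.8 in Cd+Se, with no overlap between injected and other mice. Its difference between Cd and control was 1.12 (standard error 0.30). Over the 16 mice Cxcl9 was between 0.583 and 1.401 times Cxcl10.

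Cxcl13, the B-cell chemokine, went the other way. It was listed at 0 TPM in all 8 mice injected with Cd. In control mice 27 to 30 it was at 2.22, 3.9, 3.8 and 3.64 TPM, and in Se mice 39, 40, 41 and 44 at 15.7, 3.41, 3.08 and 2.27 TPM. Mouse 39 held several times the level of any other mouse. No fold is given against groups listed at 0. Among the 57010 genes, Cxcl13 was the only 1 listed at 0 in all 8 injected mice and at 1 TPM or more in all 8 others, although 10422 genes were at 1 TPM or more in all of those others; 0 genes showed the reverse. None of 10 housekeeping genes (among them Actb, Tbp and Hprt) was listed at 0 in any library, and their lowest level was 5.62 TPM. That level is above Cxcl13 in every mouse but mouse 39, so these genes cannot show how often a gene as low as Cxcl13 is listed at 0. A value of 0 in these files may still stand for a level that was too low to be estimated.

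Ccl6 and Ccl9, the CCR1 ligands, did not follow the other inducible genes. Ccl9 was present in every liver, at 23.2 to 31.2 TPM in control, 20.7 to 32.6 in Cd, 17.7 to 31.7 in Se and 20.3 to 63.2 in Cd+Se, and all 4 ranges overlapped. Its log2(TPM + 1) difference between Cd and control was 0.03 (standard error 0.26). Ccl6 was 5.78, 6.79, 5.35 and 7.11 TPM in the control group and 3.64, 3.78, 3.12 and 4.83 TPM in the Cd group. It was 1.12, 9.08, 4.95 and 3.25 TPM in the Se group and 8.44, 5.99, 19.7 and 7.66 TPM in the Cd+Se group. The Cd mice lay below the control mice and below the Cd+Se mice without overlap. On the log2(TPM + 1) scale Ccl6 differed by -0.59 (standard error 0.37) between Cd and control and by 1.12 (standard error 0.37) between Cd+Se and Cd; without Cd+Se mouse 15 the latter was 0.79.

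Counted together for Cd against control, 7 of the 10 genes were past the threshold upwards and 1, Cxcl13, downwards, at an adjusted p of 0.05 in limma over 11766 genes. Across all genes tested, 5.82% passed upwards and 24.9% downwards. Without overlap, 7 were higher and 2 lower (6.44% and 27.8% of all genes tested). Between all 8 injected mice and the 8 others, 6 genes were higher without overlap and 1 was lower (0.391% and 1.32% of all genes). With each library centred on its median, 2260 genes passed upwards and 1804 downwards, in place of 685 and 2934. The listed genes were chosen on these levels, so nothing is read from the counts. The median difference of all tested genes in this comparison was -0.17 on the log2(TPM + 1) scale and that of the listed genes was 1.36. With that centring, which removes most of the shift, the 7 genes that were higher had differences from 1.34 to 2.26. Cxcl1 was no longer past the threshold without control mouse 28 (1.79) or control mouse 29 (1.69), or with no filter on low values.

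For Cd+Se against Se the count was 6 upwards and 1 downwards (0.544% and 0.17% of all genes), with Cxcl1 short of the threshold at a difference of 2.55 (standard error 0.61). For Cd+Se against control it was 5 upwards and 1 downwards (0.314% and 0.17%), with neither Cxcl1 nor Cxcl9 among them. These comparisons share mice, so they are not separate evidence of one direction. Both counts fell to 2 when only the groups compared entered the fit, which takes the spread from 8 mice instead of 16. Leaving out mouse 13 changed neither count.

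**Figure D2:**
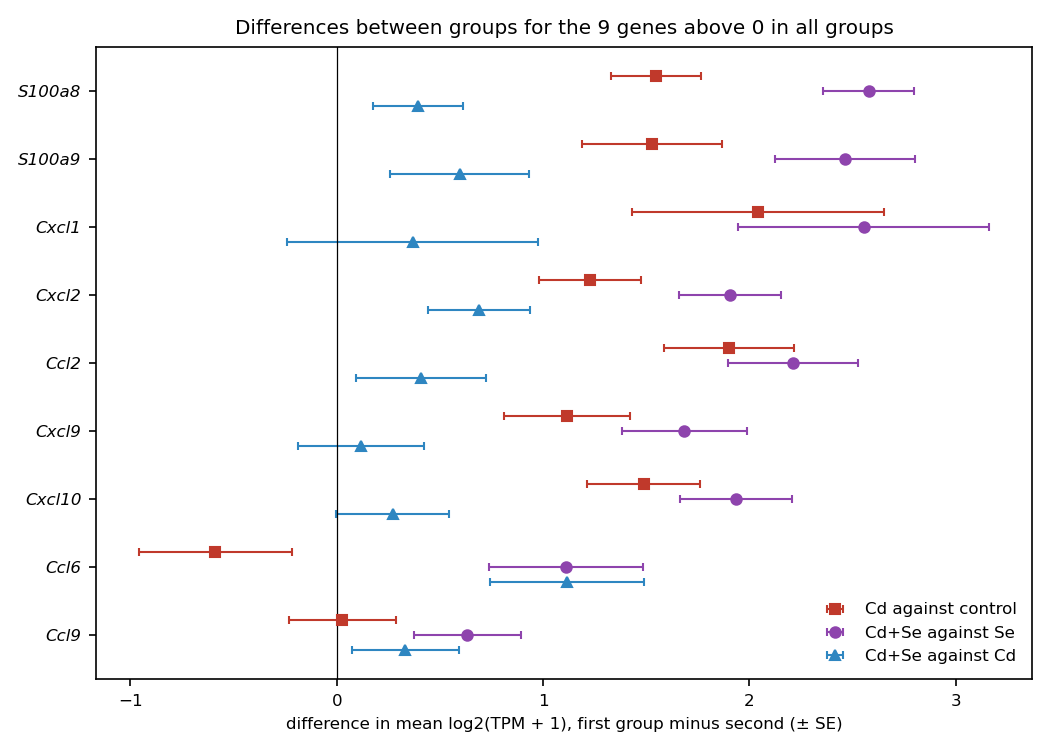
Difference in mean log2(TPM + 1) with its standard error for the 9 genes above 0 in all groups (Cxcl13 is left out because it is at 0 in both injected groups). Cd against control (squares) and Cd+Se against Se (circles) lie well above 0 for the first 7 genes, from 1.12 to 2.58, while Cd+Se against Cd (triangles) lies between 0.12 and 1.12 for all 9.

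The comparison of Cd+Se with Cd asks whether dietary Se altered these RNAs in mice that received Cd. All 9 genes above 0 had a higher mean in Cd+Se than in Cd, with differences from 0.12 for Cxcl9 to 1.12 for Ccl6. After quantile normalization or median centring that of Cxcl9 was -0.07 or -0.08, and the others kept their sign. Without Cd+Se mouse 13 the differences were -0.28 for Cxcl9, -0.08 for Cxcl10 and 0.0066 for Ccl2, without Cd+Se mouse 15 that of Cxcl1 was -0.06, and without Cd mouse 5 that of Cxcl9 was -0.0075. By limma, 0 of the 10 genes passed in either direction (13.6% of all genes upwards and 2.35% downwards). At an unadjusted p under 0.05 there were 2 listed genes, beside 33.1% of all genes. S100a9 and Ccl6 were higher without overlap and 0 genes were lower (16.1% and 3.11% of all genes). The median difference over all tested genes was 0.17, and of the genes past the threshold 1600 were higher and 276 lower, against 937 and 1272 with median centring. With only the groups compared in the fit, 47 of all genes passed upwards and 19 downwards. The shares of all genes past the threshold thus depended on a spread taken from all 16 mice. For Cxcl2 the mean of 3.69 ± 2.17 TPM in Cd+Se stood against 1.75 ± 0.57 in Cd, a difference of 0.69 (standard error 0.25). In SD of TPM, which tends to grow with the mean, the Cd+Se mice were the most spread of the 4 groups for 9 of the 10 genes. On the log2(TPM + 1) scale that order can differ. S100a9, for example, ran from 2.08 to 12.95 TPM in control and from 27.6 to 47.5 TPM in Cd+Se. With 4 mice per group, the differences between Cd+Se and Cd are poorly resolved.

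**Figure D3:**
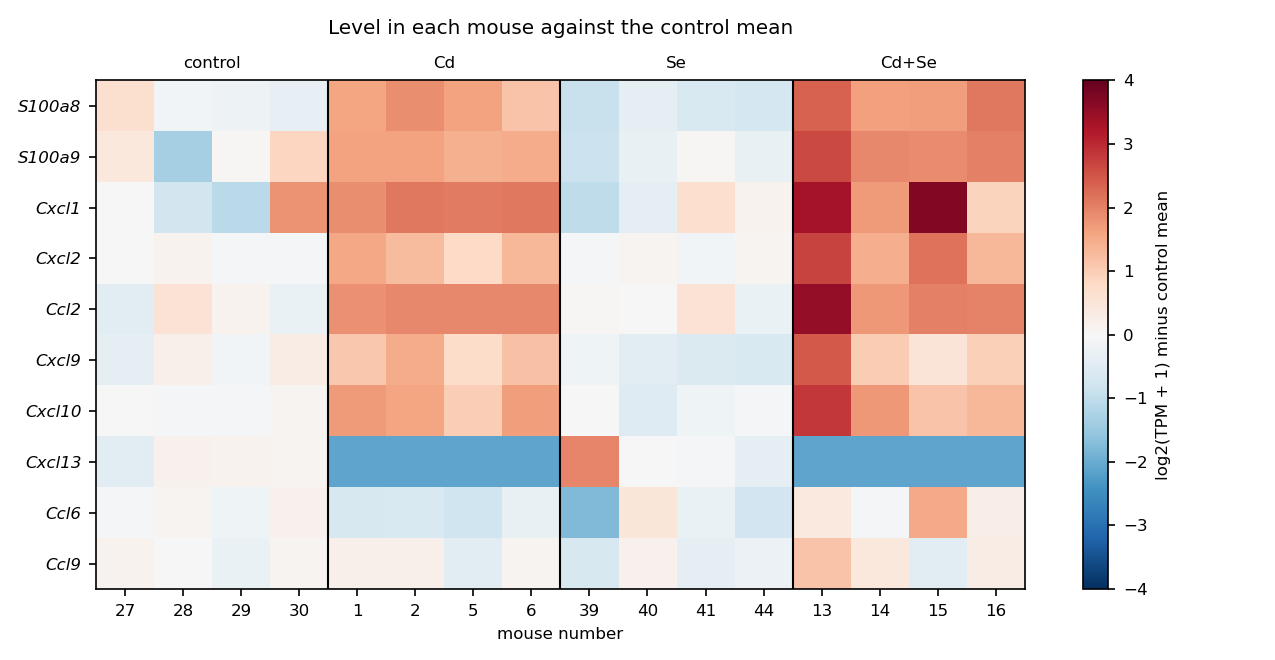
Level of each gene in each mouse as log2(TPM + 1) minus the mean of the 4 control mice (colour, from -4 to 4), with mice in columns by group. The first 7 rows are red in the injected groups, Cxcl13 is blue in all 8 injected mice, and Cxcl1 in control mouse 30 is as red as in the Cd mice.

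Single mice carried much of the spread. Cd+Se mouse 13 was the highest of its group for 7 of the 9 genes that could be ranked, and mouse 15 for the other 2, Cxcl1 and Ccl6. Mouse 15 was also the lowest of the group for 4 genes, including Cxcl9 at 3.98 TPM and Cxcl10 at 6.22 TPM. Without mouse 13 the differences between Cd+Se and control were 1.80 for S100a8, 1.95 for S100a9, 1.91 for Ccl2, 1.41 for Cxcl10 and 0.83 for Cxcl9. Among the Cd mice, mouse 5 was the lowest for 6 of 9 genes.

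Se without Cd was compared with control. By limma, 0 of the 10 genes and 0 of all 11766 genes tested passed in this comparison (0% upwards and 0% downwards). At an unadjusted p under 0.05 there was 1 listed gene and there were 454 genes in all (3.86%). S100a8 was lower in all 4 Se mice than in all 4 control mice (1.79% of all genes were lower without overlap), with a difference of -0.64 (standard error 0.22). The interaction asks whether the difference made by Cd depended on Se. It was past the threshold for 0 of the 10 genes (0.901% of all genes upwards and 0.136% downwards). At an unadjusted p under 0.05 there were 2 listed genes, beside 21.3% of all genes. The interaction was largest for Ccl6, at 1.70 (standard error 0.53), and for S100a8, at 1.03 (standard error 0.31).

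The receptors for these ligands were mostly too low to test. Of 23 chemokine receptor genes, 4 had a mean of 1 TPM or more, and Cxcr4 and Ccr2 rose in Cd against control. Both reached that mean only through the injected mice. In control and Se the means were 0.435 and 0.473 TPM for Cxcr4 and 0.728 and 0.463 TPM for Ccr2. These genes could hardly have been tested without differing, so their p-values are a description only. Ccr2, the receptor of CCL2, was 0.44 to 1.23 TPM in control and 0.97 to 1.93 TPM in Cd. The difference was 0.56 (standard error 0.18, limma adjusted p = 0.0269), past the threshold in 9 of 15 alternatives. For Ccr2 the difference between Cd+Se and Se was 1.31 (limma adjusted p = 0.00181). Cxcr2, the receptor of CXCL1 and CXCL2, was at 0.65 TPM or less in every mouse, Cxcr3 at 0.36 TPM or less, and Ccr1 between 0 and 1.24 TPM. Cxcr5, the receptor of CXCL13, was at 0.97 TPM or less.

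Of 30 other chemokine ligand genes, 8 were tested, and the calls depended on the scaling. Ccl27a rose and Cxcl12 fell in Cd against control, while 4 rose and 0 fell with median centring (4 and 1 with quantile normalization). The median difference of the 8 was 0.37 beside -0.17 for all genes. Ccl27a was 14.7 to 17.2 TPM in control and 22.3 to 29.02 TPM in Cd (difference 0.65, limma adjusted p = 0.00186), and it fell in Cd+Se against Cd (-0.52, limma adjusted p = 0.0169). Cxcl12, the ligand of CXCR4, fell by 0.36 (limma adjusted p = 0.0437), a call held in 6 of 16 alternatives. Ccl7, a further CCR2 ligand that was below the limit for testing, was 0 to 0.21 TPM in control and 0.92 to 1.18 TPM in Cd.

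Among 14 other S100 genes, 7 were tested and 4 rose in Cd against control (median difference 0.86). S100a4 rose by 1.31 (standard error 0.38, limma adjusted p = 0.0164) and S100a6 by 1.16 (standard error 0.36, limma adjusted p = 0.025). The call of S100a6 held in 9 of 15 alternatives. S100a10, whose product pairs with annexin A2, rose by 0.87 (limma adjusted p = 0.00252) and S100a11 by 0.86 (limma adjusted p = 0.00996). In Cd+Se against Cd, S100a10 fell by 0.99 (limma adjusted p = 0.00577), with 40.5 to 62.7 TPM in Cd+Se and 102 to 112 TPM in Cd. S100a8 and S100a9 had positive differences in that comparison.

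The receptor side of the alarmins pointed in more than 1 direction. Of 8 genes, 6 were tested; Ly96, which encodes the MD-2 partner of Toll-like receptor 4, rose by 0.65 (limma adjusted p = 0.00918) in Cd against control. The adaptor genes Tirap (-0.60, limma adjusted p = 0.011) and Ticam1 (-0.41, limma adjusted p = 0.0377) fell, the latter in 3 of 15 alternatives, and so did the kinase gene Irak4 (-0.85, limma adjusted p = 0.0012). In Cd against control 1 of the 6 passed upwards and 3 downwards, beside 5.82% and 24.9% of all genes tested. With median centring or quantile normalization it was 1 and 2. The median difference of the list was -0.50, and -0.28 with median centring. Irak4 rose in Cd+Se against Cd (0.65, limma adjusted p = 0.0154), where 13.6% of all genes passed upwards. Tlr4 itself was at 0.81 TPM or less in every mouse.

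Genes upstream of the chemokines were taken as 2 lists. Of 24 cytokine inducers and NF-kB feedback genes, 17 were tested. In Cd against control Nfkbia, the inhibitor that NF-kB induces, rose by 0.53 (limma adjusted p = 0.0268), and Rela (-0.52, limma adjusted p = 0.0291) and Bcl3 (-0.83, limma adjusted p = 0.00566) fell. With median centring 7 of these genes rose and 1 fell, and with quantile normalization 5 rose and 2 fell. Nfkbia passed in 11 of 16 alternatives and Rela in 9 of 16. In Cd+Se against Cd, Tnfrsf1b, Tnfaip3 and Icam1 rose, by 0.80, 0.75 and 0.54 (limma adjusted p = 0.0208, 0.0417 and 0.0357, in that order). None of the 3 passed after median centring, and Tnfaip3 passed in 4 of 15 alternatives and Icam1 in 5 of 16. Of 21 interferon gamma response genes, 17 were tested; 0 rose and 5 fell in Cd against control (2 and 3 with median centring), where 24.9% of all genes passed downwards. Irgm2, an interferon-induced GTPase gene, fell by 1.12 (standard error 0.17, limma adjusted p = 0.000359). With Se added to Cd, 3 of the 17 rose relative to Cd alone (13.6% of all genes passed upwards), with Irgm2 at 0.98 (limma adjusted p = 0.00471).

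**Figure D4:**
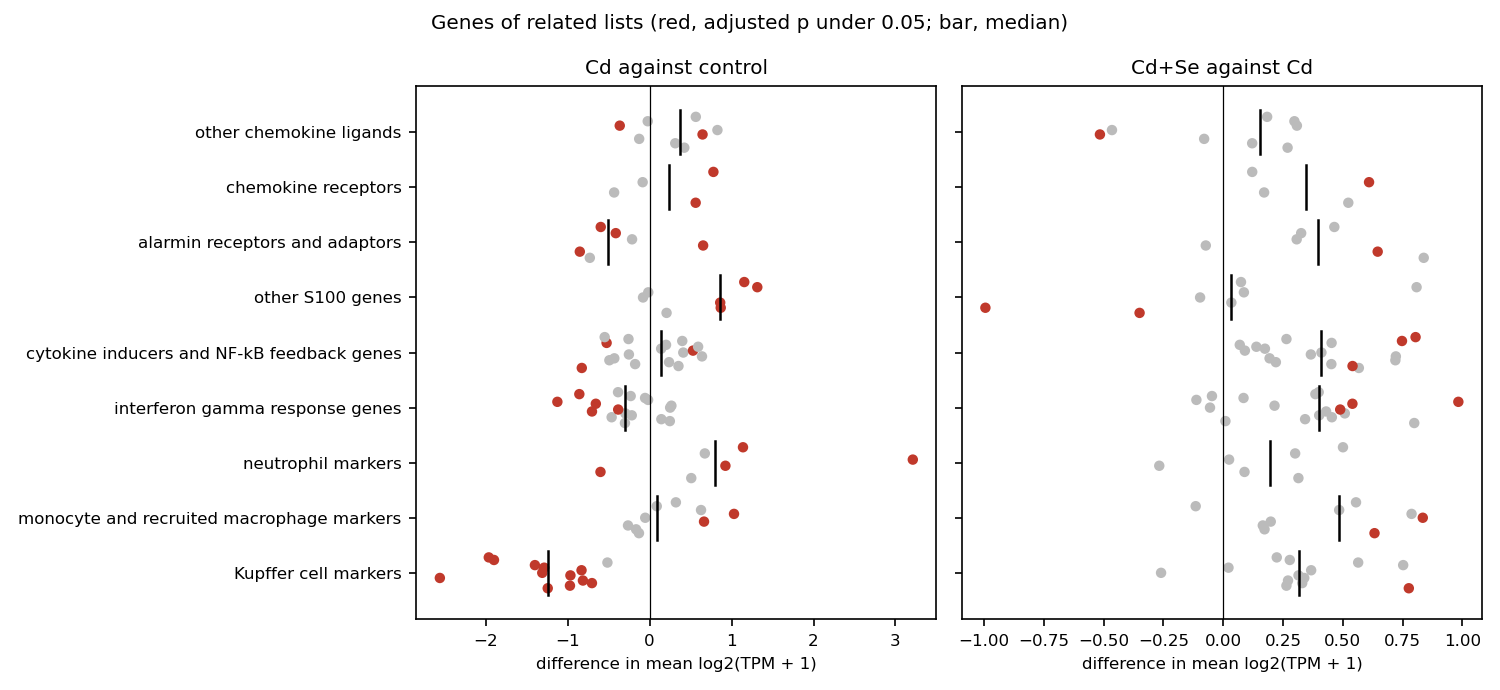
Difference in mean log2(TPM + 1) of each tested gene in 9 related lists, for Cd against control (left) and Cd+Se against Cd (right; the axis is narrower), with red points past an adjusted p of 0.05 and a bar at the list's median. For Cd against control, 12 of 13 Kupffer cell markers lie below 0 in red and 3 of 6 neutrophil markers lie above 0 in red.

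Markers of the cells that could carry these RNAs moved as well. Of 20 neutrophil markers, 6 were tested. Lcn2 (3.21, limma adjusted p = 0.0112), Retnlg (1.14, limma adjusted p = 0.00602) and Hdc (0.93, limma adjusted p = 0.0307) rose in Cd against control. Fpr1 fell (-0.60, limma adjusted p = 0.0414). The call of Hdc held in 9 of 16 alternatives and that of Fpr1 in 4 of 15. Hepatocytes are also known to make Lcn2, which dominated the summed level of the list. That sum was 13.8 to 68.4 TPM in control, 75.9 to 194 in Cd, 9.36 to 32.7 in Se and 52.7 to 434 in Cd+Se. Of the defining markers, Ly6g was at 0.17 TPM or less and Mpo at 0.2 TPM or less in every mouse, and Ly6g was listed at 0 in all 4 Cd+Se mice. Retnlg was 0 to 0.37 TPM in control and 1.07 to 2.99 TPM in Cd, and Csf3r was 0.38 to 0.97 and 0.99 to 1.76 TPM (difference 0.51, limma adjusted p = 0.0523). Both Retnlg and Csf3r were thus below 1 TPM, the limit for the fit, in every control mouse and reached it through other groups. Their p-values are a description only. The part of neutrophils in the levels of S100a8 and S100a9 was not tested.

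Of 13 Kupffer cell markers, all tested, 12 fell and 0 rose in Cd against control, with a median difference of -1.24. Cd163, a haemoglobin scavenger receptor gene, fell by 2.56 (standard error 0.24, limma adjusted p = 1.86e-05), and Timd4 and Vsig4 fell by 1.90 and 1.96 (limma adjusted p = 1.42e-05 and 5.25e-05). Clec4f was 39.5 to 48.6 TPM in control and 10.7 to 21.1 TPM in Cd, and 7.48 to 20.8 TPM in Cd+Se. The summed level of the list was 259 to 314 TPM in control, 116 to 175 in Cd, 190 to 355 in Se and 120 to 230 in Cd+Se. Of 12 monocyte and recruited macrophage markers, 9 were tested. Ly6c2 (0.66, limma adjusted p = 0.0168) and Ms4a4c (1.03, limma adjusted p = 0.0335; past the threshold in 7 of 15 alternatives) rose in Cd against control, and Lyz2 (0.83, limma adjusted p = 0.00972) and Cd68 (0.63, limma adjusted p = 0.0384; past the threshold in 4 of 16 alternatives) rose in Cd+Se against Cd. The part of either cell type in the chemokine levels, Cxcl13 included, was not tested.

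Markers of other cells of the liver gave few calls. Across all genes tested, 24.9% passed downwards in Cd against control and 13.6% upwards in Cd+Se against Cd, so nothing is read from counts near those shares. Of 7 hepatocyte markers, Cps1 and Hnf4a fell in Cd against control (-1.36 and -0.81, limma adjusted p = 0.000169 and 0.00173) and rose in Cd+Se against Cd (0.87 and 0.58, limma adjusted p = 0.00838 and 0.0239), as did Apob (0.42, limma adjusted p = 0.0462; past the threshold in 7 of 16 alternatives). With median centring 2 of the 7 rose and 2 fell in Cd against control. Of 7 sinusoidal endothelial markers, Kdr and Stab2 fell in Cd against control, though neither passed after median centring, and Lyve1 rose in Cd+Se against Cd (1.09, limma adjusted p = 0.0138). Reln was the only 1 of 4 tested stellate cell and fibroblast markers to pass in Cd against control (-0.93, limma adjusted p = 0.0104). By limma, 0 of 6 tested red blood cell and platelet markers passed in Cd against control or in Cd+Se against Cd, with 0 at an unadjusted p under 0.05, and their summed level overlapped between all 4 groups. Only 1 lymphocyte marker of 13 and 1 mesothelial marker of 6 reached the limit for testing, and neither passed or had an unadjusted p under 0.05 in those comparisons. B cells respond to CXCL13, and their marker Ms4a1 was at 0.75 TPM or less in every mouse.

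Likeness between genes was described by Pearson's r of log2(TPM + 1), with no test, since all points share the same 16 libraries and the injected and other mice form separate clusters. Within the listed genes, Cxcl9 and Cxcl10 were the most alike (r = 0.95 over 16 mice, 0.94 within the 8 injected mice and 0.45 within the 8 others). S100a8 and S100a9 had r = 0.90 over 16 mice, 0.81 within the injected and 0.30 within the others. Ccl9 followed Cxcl10 within the injected mice (r = 0.94) but not within the others (r = -0.24), whereas Ccl6 and Ccl9 were alike within the others (r = 0.86) and not within the injected (r = -0.03).

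Among the other protein-coding genes, the 3 most like each listed gene over the 16 mice were named. For S100a8 they were Ccr2, Lgals3 and Mt2 (r from 0.91 to 0.93), and for S100a9 they were Serpina3f, Lgals3 and Mt2 (0.90 to 0.91). Cxcl1 was most like Bcl2a1b, Lat2 and Lcn2 (0.88 to 0.92), and Cxcl2 was most like Hmox1, Nfkb2 and Serpina3f (0.93 to 0.94). Within the injected mice alone Cxcl2 kept r = 0.92 with Nfkb2, while within the others it was -0.02. The nearest genes to Ccl2 were S100a4, Saa3 and Lgals3 (0.90 to 0.94). Cxcl9 stood with Tmsb10, Serpina3g and Ikbke (0.93 to 0.94), and Cxcl10 with Serpina3g, Lgals3 and Csf3r (0.92 to 0.93). Cxcl13 stood with Idh3a, Wdr24 and Haus6 (0.86 to 0.87), for which no value exists within the injected mice because Cxcl13 was at 0 there. Ccl6 followed Sla, Lbp and Ifitm2 (0.84 to 0.89), and its likeness to Sla held within the injected (0.99) and the other mice (0.91). Ccl9 followed Arhgap30, Tapbp and Ptprc, the pan-leukocyte gene (0.88 to 0.92).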

How the data were processed

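Poly(A)-selected liver RNA of 16 mice was sequenced on an Illumina NovaSeq. The authors deposited their values as TPM in 1 table (57010 genes, 1 column per mouse). The sample titles name rep1 and rep2 for a mouse, and whether these are read files or repeat libraries behind its column is not given in the sources used here. The submitters' processing notes name fastp, HISAT2 and StringTie, without versions, and the build GRCh38, although the gene identifiers are mouse Ensembl identifiers. How this build relates to the mouse values is not given in the sources used here. TPM keep no sequencing depth, so no counting interval or detection floor is given, and precision rests on 4 mice per group.

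Groups were taken from the sample titles. Values were compared as log2(TPM + 1) with limma 3.58.1 in R 4.3.3, fitting all 4 groups at once and letting the prior variance follow intensity. Genes averaging 1 TPM or more (11766) were tested in 6 comparisons, with Benjamini-Hochberg adjustment over all of them and a threshold of 0.05. On this scale differences of low genes are understated. The steps were tested on simulated data first.

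The listed genes and the 15 related lists (216 genes, 215 found) were chosen with earlier results of these data known. From each related list, in Cd against control and in Cd+Se against Cd, up to 4 genes past the threshold with the largest differences could be named. Genes outside that rule (such as Ccl7, Csf3r, Clec4f, Ms4a1, Cxcr2, Tlr4 and the Cd+Se against Se values) were named for their role as ligand, receptor or defining marker, after their values were seen. Nothing shows how the mice of a group were housed or handled. The p-values measure the spread between mice only and cannot separate a treatment from another difference shared by a whole group. Gene positions are from GENCODE M21 (GRCm38) and start-site windows from RefSeq (GRCm38.p6). Alternatives were a pseudocount of 0.1, no filter, a mean of at least 5 TPM, quantile normalization, median centring, only the groups compared, no trend, a log2 difference of at least 1, and leaving out each mouse.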

Additional observations from a re-analysis of the deposited data

Results flagged for a closer look

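Dixon's test divides the gap between an extreme mouse and its neighbour by the group's range, here in TPM. An extreme mouse was past the 95% limit for 6 of the 38 sets of 4 values looked at. Chance would give 1.9 if levels were normally distributed and the sets independent. Whether TPM are normally distributed was not tested, and the sets share mice. Cd+Se mouse 13 was high for S100a9 (47.5 TPM, ratio 0.872), Cxcl9 (17.8 TPM, ratio 0.85) and Ccl2 (15.5 TPM, ratio 0.913). Se mouse 39 was high for Cxcl13 (15.7 TPM, ratio 0.915). Control mouse 27 was low for Cxcl13 (2.22 TPM, ratio 0.845), and Cd mouse 1 was low for Cxcl1 (38.1 TPM, ratio 0.93). The cause was not tested.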

How the results depend on the processing

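Across the alternatives, no listed gene past the threshold changed sign. The number of listed genes past it changed by over 1.5 times as follows. A mean of at least 5 TPM, which leaves 6 listed genes in the fit, gave 4 in Cd against control (8 without that limit), 1 in Cd+Se against Cd (0), 3 in Cd+Se against control (6) and 3 in Cd+Se against Se (7). With only the groups compared in the fit, it was 2 in Cd+Se against control and 2 in Cd+Se against Se. Leaving out each mouse in turn gave 0 to 1 in Cd+Se against Cd (Cxcl2 without Cd+Se mouse 16) and 0 to 1 for the interaction (Ccl6 without Se mouse 40). Of the related lists, 43 genes passed in Cd against control and 14 with a log2 difference of at least 1. In Cd+Se against Cd 18 passed, 10 with no filter, 11 with median centring, 1 (S100a10) with only the groups compared, 1 with a log2 difference of at least 1, and 9 (without Cd mouse 5) to 24 (without Cd+Se mouse 15) when a mouse was left out. In Cd+Se against control 13 passed, 5 with a mean of at least 5 TPM, 20 with median centring, 3 with only the groups compared, and 6 to 16 when a mouse was left out; 6 passed without control mouse 29 or 30, 7 without control mouse 27 or Cd+Se mouse 13 and 8 without control mouse 28. In Cd+Se against Se 17 passed, 5 with a mean of at least 5 TPM, 4 with only the groups compared, and 6 to 22 when a mouse was left out (6, 7 and 9 without Se mouse 44, 41 and 39, and 9 without Cd+Se mouse 13). For the interaction 2 passed, 1 with a pseudocount of 0.1, 0 with no filter, 5 with quantile normalization, 5 with median centring, and 0 to 5 when a mouse was left out (0 without control mouse 27, 28 or 29, Se mouse 39 or 41 or Cd+Se mouse 14, 4 without Se mouse 40 and 5 without Cd+Se mouse 15). The cause of these shifts was not tested. No paired analysis was possible because the mouse numbers differ between groups. Depth is unknown, so levels near 0 TPM, such as those of Cxcl2, Ccl2 and the receptors, cannot be given a limit.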
